A study of Mus musculus with 64 samples.

Results

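The binding of SOX2 to chromatin was compared between SOX2-ON and SOX2-OFF cells, 2 states of one mouse embryonic stem cell line, SOX2-TetON. The comparison took all SOX2 immunoprecipitated libraries of this line, chosen by their titles. These were 6 of the 64 samples of the series, with 3 biological replicates for each state. The line came from the XY HM1 TetON line (strain HM1 (129)), was Sox2-/- and carried a Sox2 transgene at the HPRT locus. The transgene answers to doxycycline through rtTA, a doxycycline-dependent activator expressed from Rosa26, and the line was grown from picked clones, whose number is not given in the sources used here. Both states were differentiated for 72 h, first for 2 days with bFGF at 10 ng/ml and LGK974 at 5 µM, a blocker of WNT secretion, and then until day 3 with CHIR99021 added, which blocks GSK3 and so activates WNT signalling. In SOX2-ON, doxycycline at 1 µg/ml was maintained during the 72 h, and in SOX2-OFF it was withdrawn. The paper proposes that SOX2 found in SOX2-OFF probably came from protein left at a low level after the withdrawal. This was not tested here. All 6 samples were fixed with a protein cross-linker and formaldehyde and precipitated with the same goat antibody against SOX2. The 6 peak lists held 1087556 peaks. Neither read depth nor the amount of SOX2 can be read from peak lists, so the lists hold no check of the labels through SOX2 itself.

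SOX2 is a transcription factor of the HMG-box family, which bends DNA and recognises short words close to CATTGT or CTTTGT. In pluripotent cells it binds together with OCT4 at composite OCT-SOX elements, and in the early embryo it helps to keep cells pluripotent and later neural. In cells exposed to WNT, β-catenin enters the nucleus and is brought to DNA by LEF1, TCF7L1 and TCF7L2, HMG-box proteins as well, whose preferred word CTTTGAA or CTTTGAT shares its first 5 letters with one SOX word.

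A site was a stretch of the genome covered by merged peaks of the 6 libraries, using the 20000 peaks with the highest −log10 p-value in each. Sites with a peak in 3 of 3 SOX2-ON lists and in 0 of 3 SOX2-OFF lists are called ON-only below, and the reverse OFF-only. The next sequences show what lay under the summits of the 3 ON-only sites that had the highest fold and no peak of any rank in SOX2-OFF. They are the 200 bp around the strongest summit, read 5′ to 3′ on the plus strand of GRCm38 (mm10) from RefSeq, and each is named by the nearest protein-coding gene. Capitals mark matches, on either strand, to one of 8 sets of words. The SOX words were CATTGT and CTTTGT, and the OCT-SOX word was TTGTNATGC, where N is any base. The TCF words were CTTTGAA and CTTTGAT, and the T word was GGTGTGA. The CDX words were TTTATTG and TTTATGG, and the FOXH1 word was AATCCACA. The KLF word was GGGNGTGG, and the CTCF word was AGGGGGCNC. An OCT-SOX word starts with TTGT, the end of a SOX word, so both can cover the same bases.
Plxnd1, chr6:116012085-116012284: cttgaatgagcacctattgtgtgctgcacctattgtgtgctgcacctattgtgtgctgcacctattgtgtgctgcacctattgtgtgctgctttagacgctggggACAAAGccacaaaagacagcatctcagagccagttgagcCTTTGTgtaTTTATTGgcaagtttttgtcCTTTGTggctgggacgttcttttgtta
Apol7a, chr15:77355419-77355618: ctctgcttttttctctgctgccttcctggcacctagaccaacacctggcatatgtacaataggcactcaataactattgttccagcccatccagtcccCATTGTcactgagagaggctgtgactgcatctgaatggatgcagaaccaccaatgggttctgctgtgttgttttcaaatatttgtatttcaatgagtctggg
Zdhhc2, chr8:40376598-40376797: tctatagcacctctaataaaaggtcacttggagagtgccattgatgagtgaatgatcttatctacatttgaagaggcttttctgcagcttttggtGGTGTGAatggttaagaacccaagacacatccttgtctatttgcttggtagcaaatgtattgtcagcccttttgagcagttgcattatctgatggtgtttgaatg

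The Plxnd1 site held 3 SOX words and 1 CDX word, and the Apol7a site held 1 SOX word, right beside the summit. The Zdhhc2 site held no SOX word and 1 T word. An OFF-only site with a high fold and no peak of any rank in SOX2-ON is shown for the contrast in words.
Appl1, chr14:26956526-26956725: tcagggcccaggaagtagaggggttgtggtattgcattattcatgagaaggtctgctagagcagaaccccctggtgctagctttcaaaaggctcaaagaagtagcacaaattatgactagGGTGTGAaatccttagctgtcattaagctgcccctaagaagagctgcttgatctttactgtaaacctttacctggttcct
The Appl1 site held 1 T word and no SOX word.

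The sizes of the 6 lists overlapped between the states. SOX2-ON replicates 1, 2 and 3 held 93312, 105448 and 232446 peaks. SOX2-OFF replicates 1, 2 and 3 held 56263, 375980 and 224107 peaks. The difference of −0.11 on the log10 scale gave an exact two-sided permutation p = 0.9. The smallest p that this exact test allows for 3 against 3 libraries is 0.1, so no comparison of libraries given here could pass 0.05. By the study's methods, the 3 replicates of a condition came from separate experiments. The peaks covered 23.1, 25.1 and 50.9 Mb in SOX2-ON and 10.2, 65.9 and 38.7 Mb in SOX2-OFF (exact p = 1). The deposited fold of a peak is its signal over the local background. Its median over the 20000 peaks was 7.80, 7.58 and 9.31 in SOX2-ON and 5.51, 7.91 and 7.52 in SOX2-OFF (exact p = 0.4). The difference of 1.25 depended on the list length. It was 4.26 with the best 5000 peaks, 2.80 with 10000 and 0.371 with all peaks, each with the smallest exact p = 0.1. SOX2-OFF replicate 1 was the lowest of the 6 in peak number, covered length and median fold.

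**Figure D1:**
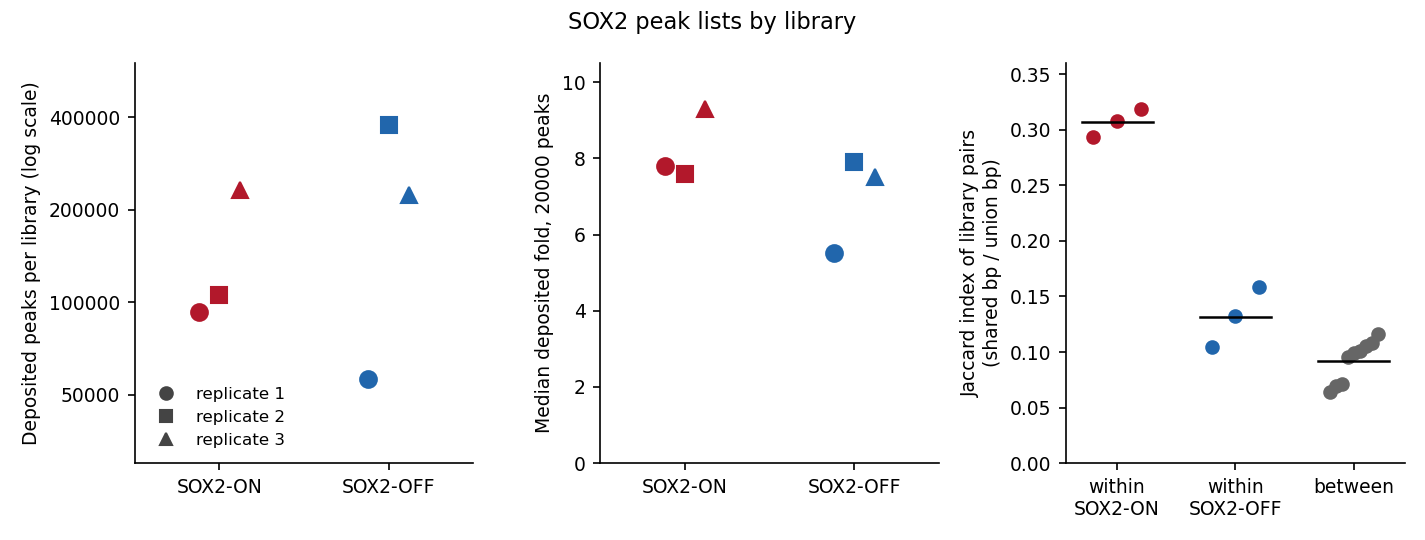
Peaks per library on a log scale, median deposited fold of the 20000 best peaks, and Jaccard index of library pairs; markers are replicates and lines are means of pairs. The 3 SOX2-ON pairs lie between 0.293 and 0.319, above the SOX2-OFF pairs and the pairs across states, while peak number and, at this list length, fold overlap between the states.

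SOX2-OFF replicate 1 also stood apart in where its strongest peaks lay. Over the exons of Tfap2a, a transcription factor of ectoderm and neural crest, its highest fold was 266.9, against 17.96, 12.27 and 11.85 in SOX2-ON and 8.21 and 9.08 in the other SOX2-OFF libraries. Over the exons of Tfap2c it reached 119.0, and over those of Tcf7l1 158.5, with a peak on 13 of 13 exons. No other library passed 20.6 over the exons of Tfap2c or 7.23 over those of Tcf7l1. Both values were from SOX2-ON replicate 1. It had a peak on 7 of 8 Tfap2c exons, as SOX2-OFF replicate 1 did. Over Tfap2a and Tcf7l1, SOX2-ON replicates 1 and 3 each had a peak on 8 and 4 exons. Over the single exon of Sox2 the fold was 4.57, 3.97 and 5.67 in SOX2-ON, 5.28 and 6.05 in SOX2-OFF replicates 2 and 3, and SOX2-OFF replicate 1 had no peak there. Because of these exon peaks, the counts of sites below are also given without the replicate 1 libraries. Their part in the results was not otherwise tested.

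SOX2-ON libraries resembled each other more than SOX2-OFF libraries did. The Jaccard index, the base pairs shared by 2 lists over their union, was 0.319, 0.308 and 0.293 for the SOX2-ON pairs at 20000 peaks each. It was 0.105, 0.133 and 0.159 for the SOX2-OFF pairs, and 0.0644 to 0.116 for the 9 pairs across the states. Pairs of the same state exceeded pairs across states by 0.127 on average, and no other division of the 6 libraries gave as large a value (one-sided exact permutation p = 0.1 over 10 divisions, the smallest possible). That difference was 0.0808 with 200 bp windows at the summits and 0.0403 with all deposited peaks, with the same p. The 2 lowest SOX2-OFF pairs both involved replicate 1.

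Of 77072 sites, 56883 (73.8%) had a peak in a single library. Such sites made up 32.5%, 35.0% and 33.4% of the sites of SOX2-ON replicates 1, 2 and 3. In SOX2-OFF they made up 69.8%, 60.9% and 56.9%. At 4101 sites (5.32% of all sites) the peak was ON-only, and at 673 sites (0.873%) it was OFF-only. All 6 lists had a peak at 1527 sites. ON-only sites also outnumbered OFF-only sites at each list length tried, by 1430 to 598 with 5000 peaks per library and by 7363 to 975 with all deposited peaks. Both counts ask for a peak in all 3 libraries of a state, and the SOX2-OFF libraries agreed less with each other. The part of this in the excess of ON-only sites was not tested. Without the replicate 1 libraries the counts were 5641 and 1922. Leaving out SOX2-OFF replicate 1 raised the OFF-only count to 1706, leaving out replicate 2 to 1548 and leaving out replicate 3 to 990. Fewer lists then had to share a site, and why the 3 counts differed was not tested. Lower on the ranked lists, the states were less exclusive. The full lists of SOX2-OFF replicates 1, 2 and 3 held a peak at 4.24%, 30.9% and 25.1% of the ON-only sites. The full lists of SOX2-ON replicates 1, 2 and 3 held one at 29.3%, 28.8% and 58.7% of the OFF-only sites. That left 2189 ON-only and 198 OFF-only sites without any peak in the other state.

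Among these strict ON-only sites, the Plxnd1 site (chr6:116011926-116012722) had the highest fold. It lay 17.2 kb upstream of the start of Plxnd1, a semaphorin receptor, between genes, and had a fold of 72.9, 67.3 and 70.01 in SOX2-ON replicates 1, 2 and 3. The Apol7a site (chr15:77355257-77356210), 40.9 kb from the start of Apol7a and between genes, had 40.7, 52.6 and 41.8. The Zdhhc2 site (chr8:40376240-40376982) lay in an intron of Micu3, a regulator of mitochondrial calcium uptake, and had 40.4, 55.1 and 60.9. All 3 were high in each SOX2-ON library and had no peak in any SOX2-OFF library. The next 3 sites lay between genes, nearest to the zinc finger gene Zfp871 (40.0, 40.6 and 48.0), to Hsfy2 (51.7, 38.7 and 42.3) and, at 1802 kb, to the lipid kinase gene Pik3c3 (45.0, 42.9 and 36.8). The Zfp871 site held 6 SOX words within 100 bp of its summit.

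At each strict OFF-only site named here, the lowest of the 3 folds was below that of every strict ON-only site named above. The named sites were picked by that value from 198 strict OFF-only and 2189 strict ON-only sites. The Appl1 site (chr14:26956192-26957044), in an intron of the endosomal adaptor gene Appl1, had 16.4, 19.4 and 59.8 in SOX2-OFF replicates 1, 2 and 3. The remaining sites were nearest to Ackr4, a chemokine scavenger (15.9, 15.1 and 16.6), to the chemokine gene Cxcl5 (20.98, 12.3 and 37.7) and to Sepsecs, an enzyme of selenocysteine synthesis (46.97, 11.95 and 42.3). No SOX2-ON library had a peak at any of these 4 sites. The median of the lowest fold over 3 libraries was 8.46 at the 4101 ON-only sites and 6.64 at the 673 OFF-only sites. At the 1006 ON-only sites without a SOX word, the median fold was 9.64, 9.61 and 11.0 in replicates 1, 2 and 3. At the 476 such OFF-only sites it was 6.72, 9.955 and 11.98. There only SOX2-OFF replicate 1 was below the SOX2-ON libraries.

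**Figure D2:**
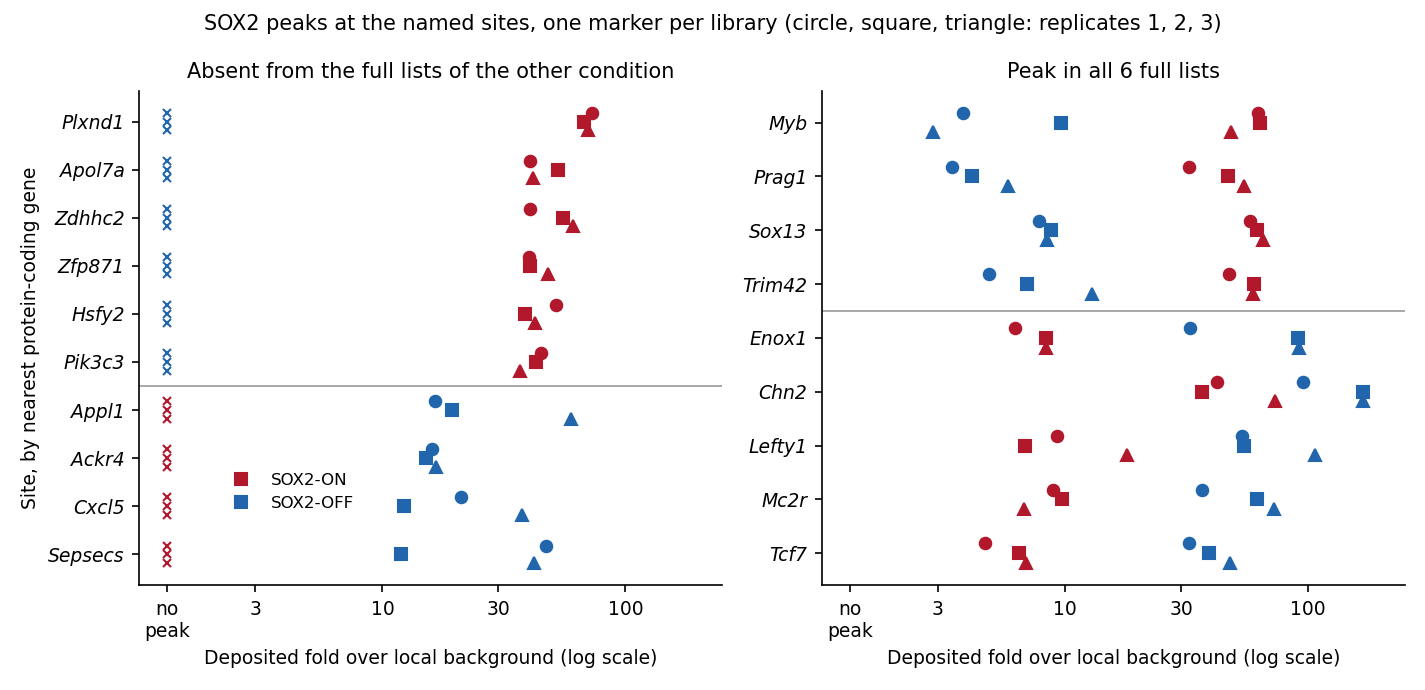
Deposited fold on a log scale at the named sites, with 1 marker per library and a cross where a list had no peak. On the left the strict ON-only sites reach 36.8 to 72.9 in SOX2-ON and the 4 strict OFF-only sites shown 11.95 to 59.8 in SOX2-OFF, and on the right the shared sites separate the states without overlap.

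At 3453 sites all 6 full lists had a peak, so that the height could be compared. With limma on the log2 fold, 352 of them (10.2%) were higher in SOX2-ON and 401 (11.6%) higher in SOX2-OFF at an adjusted p below 0.05. The comparison centred each library on its median, and 46.75% of the changed sites were then higher in SOX2-ON. Without centring the counts were 282 and 213 (56.97% higher in SOX2-ON), and with quantile normalization 413 and 387, so the balance of the directions depended on the scaling. The median difference over all shared sites was −0.06 with centring and 0.07 without it. Without SOX2-OFF replicate 1, 6235 sites could be compared, of which 525 were higher in SOX2-ON and 703 higher in SOX2-OFF. Without both replicate 1 libraries the counts were 428 and 518 of 6964.

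The shared sites with the lowest adjusted p in each direction are shown next, to set their words beside their heights. They are 200 bp around the strongest summit in the same format.
Myb, chr10:21102082-21102281: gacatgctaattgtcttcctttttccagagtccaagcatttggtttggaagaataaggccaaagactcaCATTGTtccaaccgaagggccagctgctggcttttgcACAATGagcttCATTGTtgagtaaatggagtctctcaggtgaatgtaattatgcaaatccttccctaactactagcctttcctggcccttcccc
Prag1, chr8:36155689-36155888: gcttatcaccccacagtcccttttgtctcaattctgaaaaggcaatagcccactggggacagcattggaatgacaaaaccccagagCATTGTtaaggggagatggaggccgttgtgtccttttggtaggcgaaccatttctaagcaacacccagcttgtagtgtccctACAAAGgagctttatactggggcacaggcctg
Enox1, chr14:77250776-77250975: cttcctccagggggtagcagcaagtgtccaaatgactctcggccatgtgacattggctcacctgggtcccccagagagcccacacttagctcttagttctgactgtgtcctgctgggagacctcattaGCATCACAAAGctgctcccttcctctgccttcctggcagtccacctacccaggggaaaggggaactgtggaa
Chn2, chr6:54096951-54097150: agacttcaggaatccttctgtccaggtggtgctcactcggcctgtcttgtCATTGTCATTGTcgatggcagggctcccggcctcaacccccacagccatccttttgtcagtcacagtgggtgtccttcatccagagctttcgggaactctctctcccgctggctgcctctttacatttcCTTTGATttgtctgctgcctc

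The Myb site (chr10:21101569-21102466), 58.7 kb from the start of the transcription factor gene Myb, held 3 SOX words. Its fold was 62.4, 63.4 and 48.4 in SOX2-ON and 3.8, 9.60 and 2.86 in SOX2-OFF, a log2 difference of 3.49 ± 0.41 (SE, limma adjusted p = 4.38e-07). The Prag1 site (chr8:36155362-36156238) held 2 SOX words. Its fold was 32.3, 46.7 and 54.5 against 3.43, 4.16 and 5.81, a log2 difference of 3.19 ± 0.38 (SE, limma adjusted p = 4.68e-07). In both, every SOX2-ON library was above every SOX2-OFF library. Other such sites were nearest to Sox13, another SOX gene (log2 difference 2.76), and to Trim42, in an intron of Clstn2 (2.73).

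In the other direction, the Enox1 site (chr14:77250437-77251280), in an intron of Enox1, held an OCT-SOX word that overlapped its SOX word. Its fold was 6.20, 8.38 and 8.39 in SOX2-ON and 32.8, 90.6 and 91.8 in SOX2-OFF, a log2 difference of −3.22 ± 0.35 (SE, limma adjusted p = 2.45e-07). The Chn2 site (chr6:54096037-54097668), in an intron of Chn2, a RAC GTPase-activating protein, held 2 SOX words in a row and 1 TCF word. It was a strong peak in all 6 libraries, with 42.3, 36.6 and 73.4 in SOX2-ON and 95.8, 169.1 and 168.9 in SOX2-OFF (log2 difference −1.66 ± 0.19, SE, limma adjusted p = 4.38e-07). The Lefty1 site, 10.1 kb upstream of Lefty1, a secreted antagonist of Nodal, had 9.27, 6.84 and 18.03 in SOX2-ON and 53.3, 54.3 and 106.6 in SOX2-OFF. It held 2 SOX and 2 FOXH1 words. FOXH1 is the DNA-binding partner of the SMADs that carry the Nodal signal. The 2 remaining sites were nearest to the melanocortin receptor gene Mc2r (log2 difference −2.84) and lay 3.57 kb upstream of Tcf7 (−2.86), which encodes the LEF1 relative TCF1. Each held an OCT-SOX word, as the Enox1 site did.

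The SOX words under the peaks separated the 2 states without overlap. Within 100 bp of the summit, 61.4%, 62.1% and 58.3% of the 20000 peaks of SOX2-ON replicates 1, 2 and 3 held a SOX word. In SOX2-OFF replicates 1, 2 and 3 the shares were 33.2%, 35.0% and 34.4%. Windows of the same length 5000 bp to the right held one in 25.9% to 27.7%, so the excess was 33.1 ± 2.13 percentage points (SD, n = 3) with doxycycline and 7.78 ± 1.36 (SD, n = 3) without it. The difference of 25.3 points had p = 0.1, the smallest the two-sided exact permutation test allows, and an adjusted p of 0.16 over 8 sets of words. It stayed between 24.5 and 26.5 when each library was left out. It was 18.55 points within 250 bp of the summit and 11.2 with all deposited peaks, both with exact p = 0.1.

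The other words differed far less. OCT-SOX words exceeded their background by 2.69, 3.57 and 2.95 points in SOX2-ON and by 1.43, 2.09 and 1.87 in SOX2-OFF, without overlap. The difference of 1.27 fell to 0.473 with the best 5000 peaks (exact p = 0.7), 0.460 with all peaks (exact p = 0.2) and 0.565 within 50 bp (exact p = 0.2). T words, the target of the mesoderm factor T/BRA, exceeded it by 0.06 ± 0.08 points in SOX2-ON (SD, n = 3) and by 1.17 ± 0.90 in SOX2-OFF (SD, n = 3). FOXH1 words exceeded it by 0.035 ± 0.165 and 0.408 ± 0.219 points (SD, n = 3 each). CDX words, of the caudal homeobox factors, were below their background in all 6 libraries, with differences of −1.50 to −1.87 points in SOX2-ON and −1.88 to −2.73 in SOX2-OFF. These 4 sets also gave the smallest possible exact p = 0.1 and an adjusted p of 0.16. With all deposited peaks the T difference went from −1.11 to −0.36 points, the FOXH1 difference from −0.37 to −0.13, and the CDX difference from 0.60 to 0.28 (exact p = 0.3). TCF, KLF and CTCF words overlapped between the states (exact p = 0.4, 0.3 and 0.6). With the best 5000 peaks, the KLF difference was −4.19 points (exact p = 0.1). SOX2-OFF replicate 3 was the highest of the 6 for both T and TCF words. Without it the TCF difference went from 1.56 to 3.22 points (exact p = 0.1) and the T difference from −1.11 to −0.61.

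**Figure D3:**
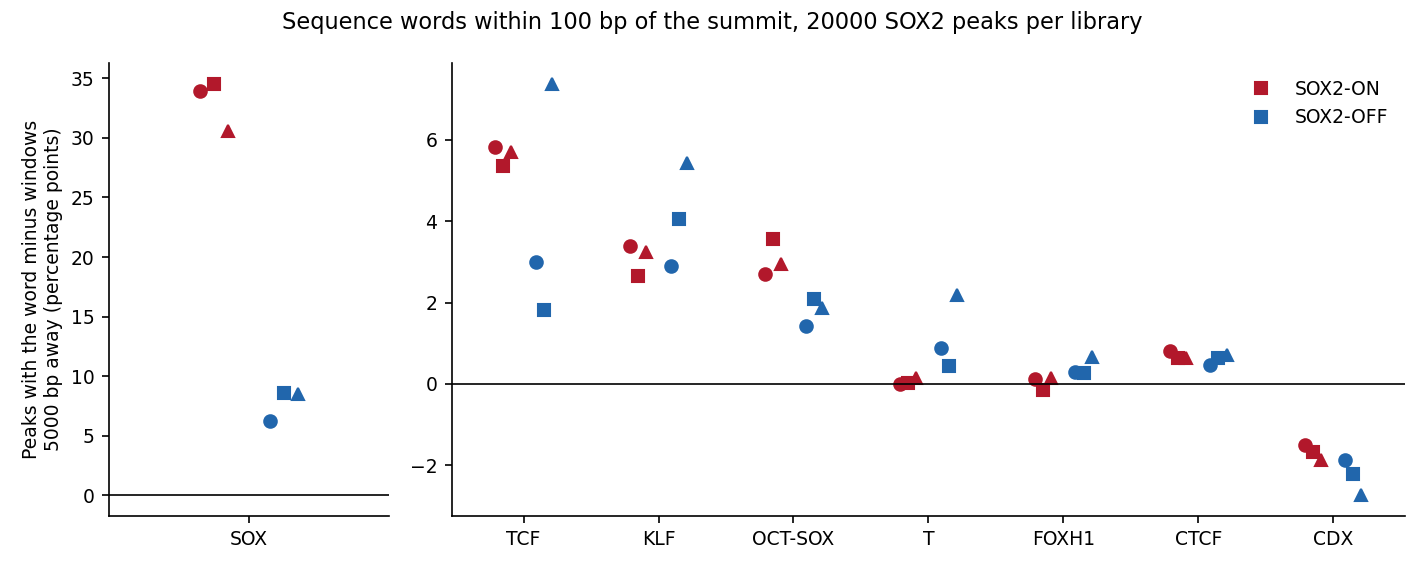
Share of 20000 peaks with a word within 100 bp of the summit less the share in windows 5000 bp away, in percentage points, with 1 marker per library. The SOX-word excess is 30.6 to 34.6 points in SOX2-ON and 6.21 to 8.60 in SOX2-OFF, while the other 7 sets lie between −2.73 and 7.38 points.

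The SOX-word excess followed the rank of a peak in every library. Among the 1000 best peaks it was 53.3, 53.0 and 50.7 points in SOX2-ON and 24.1, 28.1 and 22.1 in SOX2-OFF. Among the peaks ranked 10001 to 20000 it was 26.1, 27.0 and 22.2 points in SOX2-ON and 2.5, 3.95 and 3.79 in SOX2-OFF. The lowest ranks of each SOX2-OFF list were thus close to their background, whereas those of SOX2-ON lay in the range of the best 1000 peaks of SOX2-OFF. In the WT line the 1000 best peaks had an excess of 46.6 to 49.7 points in naive ESC, cells kept in the naive state, and 33.9 to 40.6 in caudal epiblast-like cells (CEpiLC), the WT cells given the same differentiation.

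Peaks of SOX2-OFF that at least 2 SOX2-ON lists shared were rich in SOX words, and those found in no other list were not. Of the 20000 peaks of SOX2-OFF replicates 1, 2 and 3, 15.1%, 19.9% and 20.4% overlapped a peak in at least 2 SOX2-ON lists, and these had an excess of 28.3, 30.9 and 29.0 points. A further 69.0%, 60.2% and 56.1% overlapped no peak of the other 5 lists, and these had an excess of 1.17, 1.83 and 1.38 points. Peaks shared with both other SOX2-OFF lists but with no SOX2-ON list (3.445%, 3.375% and 3.385%) had an excess of 5.37, 2.07 and 6.35 points. The remaining SOX2-OFF peaks were not scored. In SOX2-ON, 31.9% to 34.4% of the peaks overlapped no other list, and they still had an excess of 18.8 to 25.0 points.

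The site classes showed the same order, as a description of classes drawn from these lists. A SOX word lay within 100 bp of the summit at 75.5% of ON-only sites, 62.7% of the sites in all 6 lists and 29.3% of OFF-only sites, against 28.4%, 25.6% and 23.2% in their windows 5000 bp away. There were 1.34 SOX words per ON-only site and 0.322 per OFF-only site, and 38.3% against 2.68% held at least 2. CATTGT was present at 40.1% of ON-only and 7.13% of OFF-only sites, and CTTTGT at 55.4% and 23.2%. The words crowded at the summit of ON-only sites, where 9.85 per 1000 sites and base pair were counted in the central 20 bp and 1.73 at the left edge, 240 bp away. At OFF-only sites the central count was 2.38. ON-only sites with more SOX words had slightly higher folds: in replicate 1 the median was 9.64 with no word, 10.36 with 1, 11.1 with 2 and 12.04 with 3 or more, and replicates 2 and 3 had the same order. OFF-only sites held T words at 9.06% (2.97% in their windows), FOXH1 words at 3.72% (0.149%) and TCF words at 22.6% (8.92%). ON-only sites held them at 2.49%, 1.02% and 15.7% (2.365%, 0.975% and 8.46% in their windows). Sites in all 6 lists held them at 4.13%, 1.51% and 19.5% (2.95%, 0.982% and 8.45% in their windows). Their share of TCF words was thus close to that of OFF-only sites. Over the windows of all sites the FOXH1 share was 0.908%, above that of the OFF-only windows. OCT-SOX words lay at 4.01% of OFF-only sites, 3.71% of ON-only sites and 8.32% of sites in all 6 lists.

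**Figure D4:**
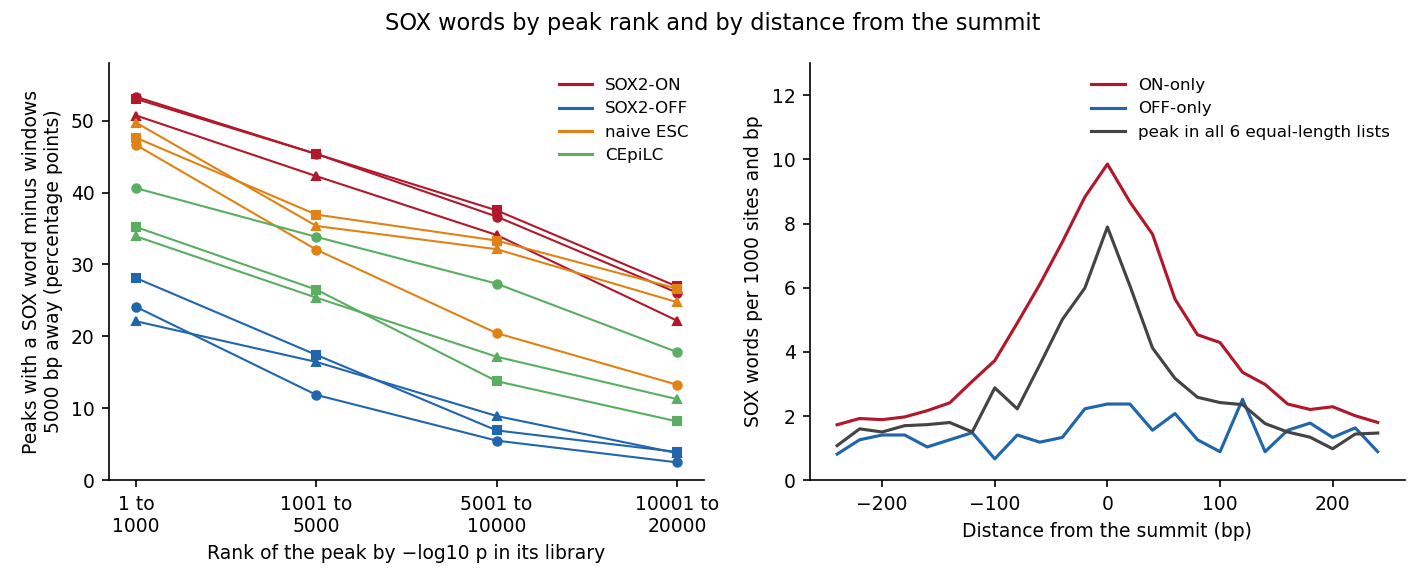
Left, SOX-word excess in percentage points by rank of the peak, 1 line per library; right, SOX words per 1000 sites and base pair by distance from the summit for 3 classes of sites. The SOX2-ON lines run above the SOX2-OFF lines at each rank, with the WT lines for comparison, and the peak of words at the summit is 9.85 at ON-only sites and 2.38 at OFF-only sites.

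Shared sites that changed differed in words as well. A SOX word lay at 72.4% of the 352 sites higher in SOX2-ON, at 44.1% of the 401 sites higher in SOX2-OFF and at 56.9% of the 2700 others. OCT-SOX words were at 5.68%, 14.2% and 5.70%, and T words at 2.84%, 7.23% and 3.11%. The sites higher in SOX2-OFF thus held the OCT-SOX and T words more often, and the SOX words less often, in these counts. The classes were defined by the same libraries, so no test is given.

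ON-only sites lay far from transcript starts and OFF-only sites nearer. The summit was within 1000 bp of the start of a protein-coding transcript at 4.24% of ON-only sites, 25.4% of OFF-only sites and 17.8% of the sites in all 6 lists, against 12.2% of all sites. The median distance to the nearest start was 47.8 kb for ON-only, 15.5 kb for OFF-only and 23.7 kb for sites in all 6 lists. Introns held 42.9% of ON-only and 26.8% of OFF-only sites, and 51.2% and 46.2% lay between genes. The median GC content of the 200 bp window was 43.8% at ON-only and 52.2% at OFF-only sites. The promoter share depended on the list length. It was 13.3%, 10.7% and 14.1% of the 20000 peaks in SOX2-ON and 10.6%, 18.2% and 16.4% in SOX2-OFF (exact p = 0.5), a difference of −2.34 points. With the best 5000 peaks the difference was −10.33 points, with 10000 it was −6.78, and with all peaks it turned to 2.59, each with exact p = 0.1.

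Libraries of the WT line, which the sites did not use, split along the same classes. SOX2 lists of naive ESC replicates 1, 2 and 3 overlapped 28.2%, 39.3% and 35.8% of the ON-only sites and 16.2%, 25.1% and 24.5% of the OFF-only sites. SOX2 lists of CEpiLC overlapped 22.9%, 14.0% and 13.9% of the ON-only sites and 63.5%, 61.7% and 80.1% of the OFF-only sites. Among all sites, the naive ESC lists overlapped 10.1%, 13.85% and 13.3% and the CEpiLC lists 17.3%, 13.5% and 16.5%. The CEpiLC shares at ON-only sites were thus near those of all sites. The naive ESC shares at OFF-only sites were above those of all sites. The class index, the log2 odds of overlapping ON-only sites minus that for OFF-only sites, was 0.91 ± 0.12 in naive ESC and −3.49 ± 1.06 in CEpiLC (SD, n = 3 each, two-sided exact p = 0.1, adjusted p = 0.1 over 9 tests). Site by site, 25.0% of ON-only sites had SOX2 in at least 2 of 3 naive ESC but fewer CEpiLC libraries, 6.19% the reverse, and 42.8% had no peak in any of the 6 WT lists. Of OFF-only sites, 51.9% had SOX2 in at least 2 of 3 CEpiLC but fewer naive ESC libraries, 2.68% the reverse, and 10.1% had no WT peak. Over all 77072 sites, 5.2% were naive ESC sites by this rule, 8.45% were CEpiLC sites and 68.8% had no WT peak. Of the 1527 sites in all 6 lists, 82.2% had SOX2 in at least 2 libraries of both WT states, against 6.36% of all sites.

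β-catenin peaks of SOX2-ON cells lay at ON-only SOX2 sites far more often than those of SOX2-OFF cells did. Of the 3423 best β-catenin peaks per library, those of SOX2-ON replicates 1, 2 and 3 overlapped 20.3%, 18.04% and 14.5% of the ON-only SOX2 sites. Those of SOX2-OFF overlapped 0.561%, 0.683% and 0.488%. At OFF-only sites the order was turned, with 11.7%, 11.6% and 16.2% in SOX2-ON and 34.5%, 30.6% and 35.1% in SOX2-OFF. Among all sites the shares were 4.295%, 4.18% and 4.2% in SOX2-ON and 3.765%, 3.18% and 3.92% in SOX2-OFF. The SOX2-ON shares were thus above those of all sites in both classes. The class index was 0.49 ± 0.60 and −6.42 ± 0.39 (SD, n = 3 each), a difference of 6.91.

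LEF1 gave a difference of 7.38, TCF7L1 of 7.75 and TCF7L2 of 4.08 between SOX2-ON and SOX2-OFF, from equal lists of 4443, 1626 and 4131 peaks. With all deposited peaks the differences were 4.70 for LEF1, 4.36 for TCF7L1, 3.71 for TCF7L2 and 5.504 for β-catenin, so the order of the 4 proteins depended on the list length. LEF1 was the most uneven: SOX2-ON replicate 2 overlapped 28.6% of the ON-only sites and replicates 1 and 3 11.1% and 10.1%. In SOX2-OFF, LEF1 overlapped 0.341% to 0.415% of them. TCF7L1 overlapped 2.83%, 8.12% and 7.02% of the ON-only sites in SOX2-ON and 0.122% to 0.195% in SOX2-OFF. TCF7L2 overlapped 3.02% to 4.24% and 0.537% to 0.902%. Among all sites, LEF1, TCF7L1 and TCF7L2 overlapped 2.24% to 4.12%, 0.872% to 2.15% and 1.62% to 2.51% in SOX2-ON. In SOX2-OFF they overlapped 1.45% to 2.21%, 1.85% to 2.01% and 1.82% to 2.41% of all sites. At least 2 of 3 libraries had β-catenin at 658 of the 4101 ON-only sites in SOX2-ON and at 13 in SOX2-OFF. At the 673 OFF-only sites the counts were 80 and 223. Each of the 4 proteins also separated naive ESC from CEpiLC in the WT line, with a difference of 5.53 (β-catenin), 4.07 (LEF1), 6.56 (TCF7L1) and 3.75 (TCF7L2). The mean index in naive ESC was −0.26, −0.82, −0.40 and −1.37 in the same order. In SOX2-ON it was 1.35 for LEF1, 0.30 for TCF7L1 and −0.55 for TCF7L2. An index below 0 means that a larger share of OFF-only than of ON-only sites was overlapped. All 8 comparisons of these proteins had the smallest possible two-sided exact p = 0.1 (adjusted p = 0.1 over 9 tests), and in none did the groups overlap.

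**Figure D5:**
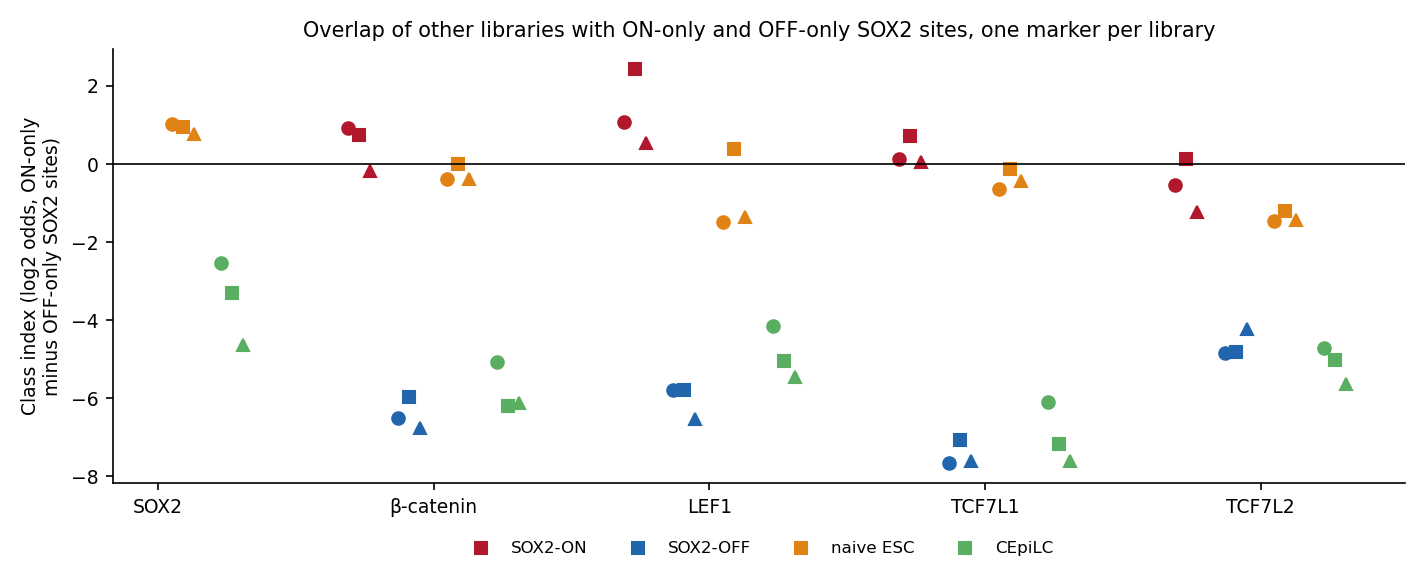
Class index in log2 odds of each library of the series outside the 6 SOX2 lists compared, by target and condition, with 1 marker per library. SOX2-ON and naive ESC libraries lie between −1.48 and 2.43 and SOX2-OFF and CEpiLC libraries between −7.67 and −2.54.

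Genes were described by the sites nearest to them. Of 21827 protein-coding genes, 2811 (12.9%) were nearest to at least 1 ON-only site and 633 (2.9%) to at least 1 OFF-only site. Among 117 genes in 9 lists, 41 had an ON-only site and 7 an OFF-only site. Counting instead only sites in the gene body and 10 kb upstream, 16 and 5 of the 117 had one, against 8.39% and 2.19% of all genes. By that narrower count, ON-only sites were held by 3 of 14 neural, 1 of 12 naive, 0 of 14 general and primed pluripotency, 4 of 16 WNT, 3 of 9 FGF, 0 of 16 streak, 3 of 16 caudal, 1 of 12 Nodal and BMP and 1 of 8 housekeeping genes. OFF-only sites were then held by 1 of 16 WNT, 1 of 9 FGF, 2 of 12 Nodal and BMP and 1 of 16 streak genes, and by 0 genes of the other lists.

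Of 14 neural progenitor genes, 10 had an ON-only site and 0 an OFF-only site. Cdh2, the N-cadherin gene, had 7 ON-only sites, of which the strongest lay 237 bp from its start with a fold of 22.3, 14.3 and 16.5 in SOX2-ON and no peak in SOX2-OFF. Pou3f2, a POU partner of SOX2, had 4, Irx3 had 3, and Sox3, the closest relative of Sox2, had 2. The strongest Sox3 site, 72.4 kb away, had 8.46, 15.2 and 14.8 and no peak in SOX2-OFF.

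Of 12 naive pluripotency genes, 5 had an ON-only site and 1 an OFF-only site. Klf5 had 4 and Nr5a2 3 ON-only sites. Klf4 and Prdm14 had 1 each, as Klf2 did, the Klf4 site 68.0 kb away with a fold of 21.8, 27.6 and 24.4 in SOX2-ON, no peak in SOX2-OFF replicate 1 and 6.60 and 3.84 in replicates 2 and 3. The OFF-only site belonged to Tbx3, at 365.8 kb, with 12.4, 28.9 and 17.7 in SOX2-OFF and 2.76 in the full list of SOX2-ON replicate 3. Of 14 genes of general and primed pluripotency, 4 had an ON-only site, among them Otx2 with 2 and Sox2 and Lin28a with 1 each, and 0 had an OFF-only site.

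Of 9 FGF and ERK feedback genes, 5 were nearest to an ON-only site and 0 to an OFF-only site. The receptor gene Fgfr2 had 3, Fgfr1 had 2, and Spry2 and Dusp6, which dampen ERK signalling, had 1 each. Of 16 WNT genes, 7 had an ON-only and 1 an OFF-only site. Tcf7l2 and Sp8 had 3 ON-only sites each, Tcf7l1 and Nkd1 2 each, and the strongest Tcf7l2 site, 166.8 kb away, had 31.0, 22.9 and 24.9 and no peak in SOX2-OFF. Axin2, a feedback inhibitor of the pathway, had 1 site of each class. Its OFF-only site lay 509 bp inside the gene with 6.73, 7.05 and 11.9 in SOX2-OFF and 4.91, 4.16 and 5 in the full SOX2-ON lists, a difference that did not pass limma (adjusted p = 0.0627).

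Nodal and BMP genes had the largest share with OFF-only sites of the 9 lists, 3 of 12, beside 3 of 12 with ON-only sites. Among them were Nodal with 3 OFF-only sites and Id1, a BMP target, with 1. The Id1 site had 4.59, 8.01 and 11.3 in SOX2-OFF, and 3.77 and 5.29 in the full lists of SOX2-ON replicates 1 and 3, so the folds overlapped. ON-only sites were near Smad2 with 2, Id2 and Smad7 with 1 each. Of 16 primitive streak and mesendoderm genes, 4 had an ON-only site (Eomes, Gata6, Foxa2 and Fgf8) and 2 an OFF-only site (T and Fgf8). The Fgf8 OFF-only site, 3.30 kb upstream, had 5.37, 12.99 and 44.8 in SOX2-OFF, and 4.69 in SOX2-ON replicate 1. Of 16 caudal epiblast genes, 2 had an ON-only site, Cdx4 and Hoxb7, which is near the background of 12.9%. None had an OFF-only site, where the background was 2.9%. Of 8 housekeeping genes 1, Tbp, had an ON-only site, which is near the background of 12.9%, and 0 an OFF-only site.

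At Sox2 itself, 35 sites were nearest to the gene, 26 of them in a single library. The ON-only site 91.2 kb upstream had a fold of 14.7, 15.2 and 19.5 in SOX2-ON and 2.99 in SOX2-OFF replicate 2 alone. The site 18.2 kb downstream was in all 6 lists, with 7.57, 12.6 and 14.8 in SOX2-ON and 6.61, 13.5 and 14.4 in SOX2-OFF. At Klf2, a naive pluripotency factor, a site 2.80 kb upstream was in all 6 lists, with 35.4, 46.5 and 42.8 in SOX2-ON and 9.02, 11.04 and 5.95 in SOX2-OFF. The log2 difference was 2.17 ± 0.38 (SE, limma adjusted p = 6.96e-05). Its ON-only site, 15.4 kb past the start and beyond the gene, had 8.15, 15.7 and 10.99, and 3.06 in the full list of SOX2-OFF replicate 2.

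At Nodal, which encodes the TGFβ-family signal of the early embryo, 3 of 8 sites were OFF-only. The one in its intron, 1.28 kb from the start, had 10.4, 17.3 and 20.9 in SOX2-OFF and no peak in SOX2-ON. The upstream sites had 10.3, 15.6 and 14.2, and 4.58, 8.68 and 6.125, of which the first had a peak in the full lists of SOX2-ON replicates 1 and 3 and the second in all 3. The second had 3.82, 5.68 and 4.53 in SOX2-ON, a difference that did not pass limma (adjusted p = 0.2925). At T, which encodes T/BRA, the strongest of 10 sites lay 4.30 kb upstream in all 6 lists, with 10.47, 17.8 and 18.8 in SOX2-ON and 6.64, 18.4 and 24.6 in SOX2-OFF. The OFF-only site, 25.4 kb upstream, had 4.66, 11.9 and 14.3, and the full lists of SOX2-ON replicates 2 and 3 had 4.37 and 5.11.

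At Cdx2, a regulator of caudal identity, the intronic site 2.94 kb from the start was in all 6 lists, with 45.9, 22.7 and 31.1 in SOX2-ON and 13.2, 13.5 and 21.8 in SOX2-OFF. All SOX2-ON libraries were above all SOX2-OFF libraries there, but the log2 difference of 0.90 ± 0.36 (SE) did not pass (limma adjusted p = 0.0716). Tbx6 and Meis3 had 2 sites and 1 site, none of which was ON-only or OFF-only. The Tbx6 site 1.46 kb upstream had 7.76, 6.61 and 4.88 in SOX2-ON and no peak in SOX2-OFF, and was among the 20000 best peaks of 2 SOX2-ON lists. The Tbx6 site over a UTR exon had 3.81 and 15.2 in SOX2-OFF replicates 1 and 3 and no peak in the other 4 libraries.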

How the data were processed

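SOX2 was measured by ChIP-seq, with single-end reads of 76 bp. The study's methods name the nf-core ChIP-seq pipeline, BWA for alignment to mm10, and MACS with default settings for narrow peaks, which the authors called in each library alone. MACS2 and mm10 stand in the submitters' processing notes. The score that the authors deposited is the −log10 q-value of the peak times 10. Its deposited fold is a ratio, computed by MACS, of the pileup at the summit over that of the local background. The authors' lists also hold, for each summit, a −log10 p-value and a −log10 q-value. Read counts and depth are unknown, and which input served which library is not given in the sources used here. In no pair of the 6 lists were more than 0.00322% of the intervals identical.

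Peaks were ranked by −log10 p-value, cut to 20000 per library and merged where they shared 1 bp. Libraries were compared by exact permutation tests, with Benjamini-Hochberg adjustment within a family. Sites with a peak in all 6 full lists were compared on the log2 fold, centred on each library's median, with limma 3.58.1 in R 4.3.3 and Benjamini-Hochberg adjustment over 3453 sites. On simulated data for these 3453 sites, it recovered 0, 161 and 197 of 200 sites changed by a log2 difference of 1, 2 and 3. The log2 odds of the class index used a pseudocount of 0.5. Genes came from GENCODE M21, and a promoter reached 1000 bp from a start. Replicate numbers were not used to pair the libraries. Deviations of same-numbered libraries correlated at 0.0955, 0.184 and 0.141, and not every value passed 0.1. Libraries of different numbers were not correlated, so these values do not show whether the numbers pair the libraries.

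Members, gene lists and tests were chosen with earlier results of these data known. Up to 4 genes per list and direction were named, by number of sites and then fold. The 6 strict sites per direction with the highest lowest fold of the 3 libraries, the 5 shared sites per direction with the lowest adjusted p, 7 genes of the study and 3 genes for the check of exons were named too. Some of the items that this rule picks are not reported here. Other list lengths, windows, scalings and left-out libraries were tried. Python 3.11.15, NumPy 2.4.6, pandas 2.3.3, SciPy 1.17.1 and matplotlib 3.10.9 were used.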

Additional observations from a re-analysis of the deposited data

How the results depend on the processing

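Of 266 alternatives to 46 results, 235 kept the direction and, for counts, stayed within 1.5 times the value reported. The 235 include 20 permutations within replicate numbers, which cannot change a difference of means. In 16 of the 22 comparisons of libraries no alternative turned the direction. The log10 difference in peak number became 0.157 with peaks of −log10 q of at least 5 and 0.0394 with peaks of a fold of at least 5, and ranged from −0.343 to 0.0694 when 1 library was left out. That in covered length ranged from −0.213 to 0.192. The promoter share became 2.59 points higher in SOX2-ON with all deposited peaks. The TCF difference was −1.82 with 5000 peaks, the KLF difference 0.0793 with all peaks, and the CTCF difference −0.233 with 5000 peaks and −0.0417 within 250 bp. ON-only sites numbered 1430 with 5000 peaks, 2597 with 10000, 7363 with all peaks and 2189 where the full lists of the other state held no peak. OFF-only sites numbered 198 by that last rule, 1922 without both replicate 1 libraries (an alternative chosen after seeing the data) and 777 to 1706 without 1 library. Shared sites higher in SOX2-OFF numbered 213 without centring and 287 to 703 without 1 library. Listed genes with an ON-only site numbered 16 by gene body and 10 kb upstream. With the replicate number as a block (replicate block), 349 shared sites were higher in SOX2-ON and 404 in SOX2-OFF, although whether the numbers pair the libraries is not known. For 20 of the 22 comparisons of libraries, labels were also permuted within numbers. By design this leaves the difference as it was, and its smallest exact p is 0.25. The causes of these changes were not tested. Depth is unknown, so a missing peak does not show missing binding.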

Other observations

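The genes nearest to the most ON-only sites, chosen after their values were seen, were Zfp608 with 11 and Sox5, another SOX gene, with 9. Neither was nearest to an OFF-only site. Beside Nodal, the genes nearest to the most OFF-only sites were Ext1 with 3 and Opa1 with 3, which had 1 and 2 ON-only sites.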
